A study of Mus musculus with 20 samples.

Results

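Mature Ccr7 migratory dendritic cells were followed in single-cell RNA-sequencing libraries of interscapular brown adipose tissue (iBAT) from mice at room temperature, in the cold or under infusion of CL316,243 (CL), a selective agonist of the β3-adrenergic receptor. Members were chosen by measured values: a cell was a member when it came from a lineage marker positive (Lin+) library, had less than 10% of its counts from mitochondrial genes, fewer than 15000 counts and between 500 and 4000 genes, and passed a gate on 9 genes. The gate required a sum of at least 4 for Ccr7, Fscn1, Ccl22 and Il4i1, at least 1 for Fscn1 and Ccl22, at least 3 for H2-Ab1, less than 2 for C1qa and C1qb, and less than 1 for Cd79a and Cd3e. The gate found 788 members among 50165 Lin+ cells within the limits, which is 1.57%. Near the threshold, 26 members had a sum between 4 and 5, and 23 other cells that met the remaining conditions had a sum between 3 and 4. The 9 gate genes chose the cells, so their levels in members are given only as a description.

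Conventional dendritic cells take up antigen in a tissue, and on maturation they stop sampling, load peptides onto MHC molecules and raise costimulatory ligands. CCR7, the receptor for the lymph node chemokines CCL19 and CCL21, then guides them through lymphatic vessels, and fascin, the product of Fscn1, bundles actin for this movement. Mature cells also secrete CCL22 and CCL17, ligands of CCR4 on T lymphocytes, and carry a program driven by NF-κB together with molecules that restrain T lymphocytes, such as PD-L1 (Cd274) and the amino acid oxidase IL4I1.

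The C57 libraries came from male C57BL/6J mice held at room temperature (RT), placed at 6 °C (COLD) or given CL by infusion at 0.75 nmol per hour, the last 2 lasting 4 days, with 2 replicate experiments each. The Adrb1 line was female Adrb1 fl/fl mice, all given tamoxifen, either without Cre (WT) or with Pdgfra-CreER (KO), which deletes the β1-adrenergic receptor gene in PDGFRA+ stromal cells and is not directed at dendritic cells. In this line there was 1 library per genotype at RT and 1 after 4 days of cold. All mice were 8 to 14 weeks old, and each library held pooled tissue of 3 to 4 mice, so p-values measure the spread between pools. The 2 RT libraries of the Adrb1 line were made with version 3 of the droplet kit and all others with version 2. Per the study's methods, RT and COLD libraries of this line also came from different collection days. Within that line kit, collection day and temperature cannot be told apart. The line also differs from C57 in sex and strain background.

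Depth and the number of members differed widely between libraries. Summed over members, a library held 63201 counts (KO RT, 6 members) to 1.49e+06 counts (C57 COLD replicate 1, 258 members), and the median member had between 3549 and 11259 counts. The deepest members were those of the 2 version 3 libraries. Between pairs of libraries 0 to 92 cell barcodes were shared over 45 pairs, and no member barcode of 1 library was a member in another. Scrublet, which scores cells for resemblance to artificial doublets, placed 68 members (8.63%) in the top 6% of scores of their libraries. Hemoglobin RNA was at 0 in members of all 4 RT libraries and of KO COLD, was near 0 in C57 CL replicate 1, and the 4 hemoglobin genes summed to 1047 and 6102 CPM (counts divided by the total of the summed members and scaled to 1e+06) in C57 COLD, 10869 CPM in WT COLD and 49330 CPM in C57 CL replicate 2. Adipocyte markers summed to 2725 CPM and macrophage markers to 5687 CPM in C57 CL replicate 1, the highest values of the 10 libraries. In C57 CL replicate 2, 1 of 21 members held 99.9% of the Hbb-bs counts, and Hbb-bs was at 34.0 CPM without it. With hemoglobin genes left out, edgeR called 75 genes in C57 after cold (35 with them) and 318 over both lines (318 with them), where no hemoglobin gene had passed the filter on low counts. The part of the adipocyte and macrophage RNAs in the results was not tested. Of the other marker lists, T lymphocyte genes summed to at most 290.1 CPM and B lymphocyte genes to at most 152 CPM in any library, where the gate itself had set limits on Cd3e and Cd79a. Neutrophil markers summed to 3.64 to 437 CPM and endothelial markers to 7.22 to 510.4 CPM, both highest in C57 CL replicate 1, and neutrophil markers reached 345 CPM in KO COLD. The median share of mitochondrial counts in members was 1.68% and 0.0631% in C57 RT replicates 1 and 2, 1.52% in WT RT and 1.46% in KO RT, and 0.195%, 0.0295%, 0.310% and 1.10% in the matching cold libraries. Gm42418, a predicted gene that overlaps ribosomal RNA sequence, was at 4424, 623, 14052 and 13402 CPM in the same RT libraries and at 1526, 194, 239 and 93.0 CPM after cold. The part of either measure in the results was not tested.

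The cells also carried mature dendritic cell genes that the gate did not use. A value of at least 0.5 of Tmem123 was found in 90.5% of members, of Relb, the NF-κB subunit of mature dendritic cells, in 91.0%, of Socs2, an inhibitor of cytokine signaling, in 74.4% and of Cacnb3, a calcium channel subunit, in 64.2%. For comparison, other classes were taken within the same quality limits. Dendritic cells that carried Xcr1 or Clec9a (markers of type 1 conventional dendritic cells, cDC1) numbered 2079. Those that carried Cd209a (a marker of type 2 and monocyte-derived cells) numbered 1719, and cells rich in C1q, a macrophage product, 9295. Both dendritic classes held no members and met the gate's limits on H2-Ab1, C1qa and C1qb, and Cd79a and Cd3e. The sum of Xcr1 and Clec9a was at least 1 in the first. In the second it was less than 1, and Cd209a was at least 2. The C1q-rich cells met only the quality limits and a minimum for C1qa and C1qb. Socs2 was found in 1.9% of Xcr1/Clec9a-gated, 3.2% of Cd209a-gated and 1.1% of C1q-rich cells, and Cacnb3 in 2.1%, 0.58% and 0.56%. The median depth over cells was 5581 counts in members, 8358 in Xcr1/Clec9a-gated cells and 5463 in Cd209a-gated cells. The Xcr1/Clec9a-gated cells were therefore not shallower than members. For C1q-rich cells only the median of the library medians was taken, at 5895 counts, so their depth is not ranked against members.

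The gate genes themselves were found in 90.9% (Ccr7), 67.0% (Fscn1), 70.1% (Ccl22) and 84.3% (Il4i1) of members. These shares pool all libraries, and most members came from COLD. Split by library, values are in the order C57 replicates 1 and 2, WT and KO. Fscn1 was found in 13 of 37, 10 of 16, 5 of 11 and 4 of 6 RT members. After cold it was found in 180 of 258, 153 of 224, 98 of 148 and 28 of 40. Ccl22 was found in 35, 15, 11 and 5 of these RT members and 171, 142, 111 and 26 cold members. The part of this difference in the comparisons of cold and RT was not tested. Flt3, the receptor for the cytokine that sustains dendritic cells, was found in 41.9% of members, 74.5% of Xcr1/Clec9a-gated, 38.1% of Cd209a-gated and 1.9% of C1q-rich cells. Zbtb46, a transcription factor of conventional dendritic cells, was found in 17.3%, 24.0%, 12.7% and 1.1% of the same classes. Both genes were found in a smaller share of members than of Xcr1/Clec9a-gated cells. The latter were deeper (median 8358 against 5581 counts), and the part of depth in these shares was not tested. Il12b, the shared subunit of interleukin 12 and 23, was found in 32.0% of members, 4.0% of Xcr1/Clec9a-gated and 0.23% of Cd209a-gated cells.

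**Figure D1:**
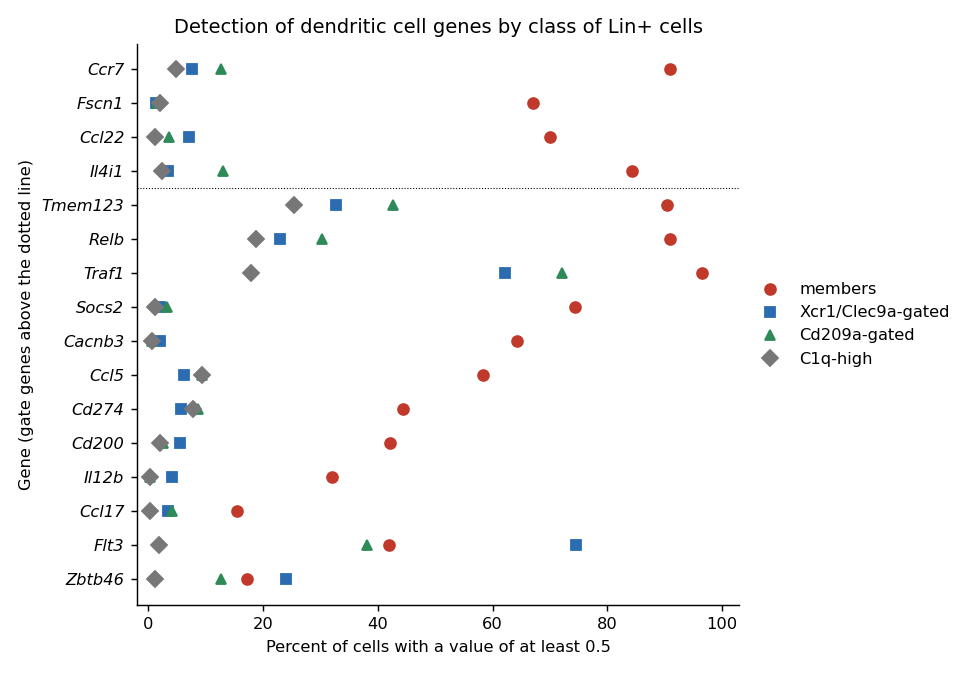
Percent of cells (x axis) with a value of at least 0.5 for each gene (y axis) in members, Xcr1/Clec9a-gated cells, Cd209a-gated cells and C1q-rich cells, all Lin+ libraries together; the 4 genes above the dotted line chose the members. Outside the gate, Socs2 was found in 74.4% of members and at most 3.2% of the other classes, while Flt3 was highest in Xcr1/Clec9a-gated cells.

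Members differed among themselves in the lineage markers and chemokines that they carried. A value of at least 0.5 of Xcr1 or Clec9a was found in 131 members, of Cd209a in 62, of both kinds in 13 and of neither in 608. Low RNA can leave no count in a cell, so the last number does not count cells that lack the markers. Il12b was found in 252 members and Ccl17 in 121, with 34 carrying both. In the 2 C57 COLD libraries Il12b was found in 96 and 80 members and Ccl17 in 20 and 22. The order turned in both C57 RT libraries, WT RT, WT COLD and C57 CL replicate 2, where more members carried Ccl17 than Il12b. Ccl22, a gate gene, was found in 115 of the 121 cells with Ccl17. Cell cycle genes were sparse: 60 members had a sum of at least 3 over 13 cell cycle genes, and 12 of these 60 were in the top 6% of Scrublet scores.

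The first question was whether members became a larger part of the Lin+ cells after cold. Members were 0.909% of Lin+ cells in C57 RT replicate 1 and 0.358% in replicate 2 (37 of 4072 and 16 of 4472 cells; exact Clopper-Pearson 95% intervals, which cover counting error only, 0.641 to 1.25% and 0.205 to 0.580%). After cold they were 3.36% and 3.65% (258 of 7676 and 224 of 6136 cells; 2.97 to 3.79% and 3.20 to 4.15%). The C57 groups did not overlap, and the mean was 3.51% ± 0.205 (SD, n = 2) in cold against 0.633% ± 0.390 (SD, n = 2) at RT, a ratio of 5.54. With 2 against 2 libraries the two-sided exact permutation test cannot go below p = 0.333, which is the value it gave.

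The Adrb1 line gave the same order of temperatures. Members were 0.347% of WT RT cells (11 of 3167), 0.273% of KO RT cells (6 of 2196), 1.81% of WT COLD cells (148 of 8193) and 1.14% of KO COLD cells (40 of 3509). Each cold library was above the RT library of its genotype, and the genotypes, with 1 library each at a temperature, were not tested against each other. Over both lines the share was 2.49% ± 1.21 (SD, n = 4) after cold and 0.472% ± 0.294 (SD, n = 4) at RT, higher in 4 of 4 cold libraries than in any RT library. The two-sided exact permutation test gave p = 0.0286, the smallest that 4 against 4 libraries allow, and 0.114 after Benjamini-Hochberg adjustment over the 4 share comparisons made. With labels permuted within each line the exact p was 0.0556, the smallest that this scheme allows.

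After CL, members were not a larger part of the cells. They were 0.478% (27 of 5644) and 0.412% (21 of 5100) of Lin+ cells in the 2 CL libraries, both between the 2 RT values. The mean was 0.445% ± 0.0471 (SD, n = 2), and the difference from RT was -0.188 percentage points, with a two-sided exact permutation p = 1. Both comparisons used the same RT libraries.

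**Figure D2:**
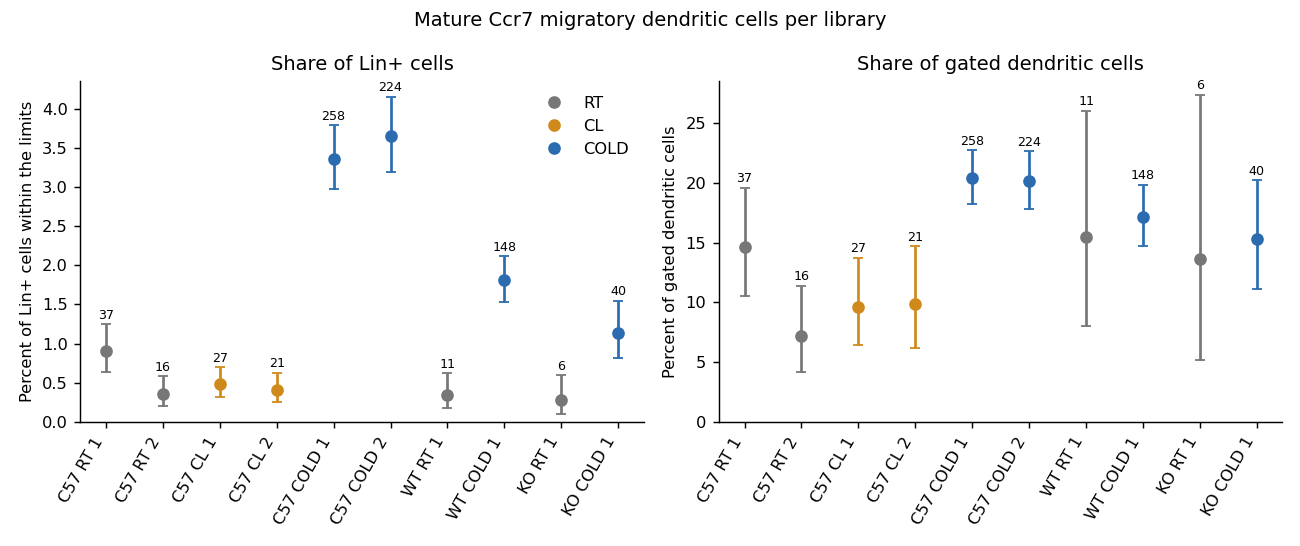
Members as a percent of Lin+ cells (left) and of gated dendritic cells (right) in each library, colored by treatment, with exact 95% binomial intervals and the number of members above each point. All 4 COLD libraries lie above all 4 RT libraries on the left, at 1.14% to 3.65% against 0.273% to 0.909%, while the right panel shows overlap.

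The same question was asked relative to other dendritic cells. Of members, Xcr1/Clec9a-gated and Cd209a-gated cells together, members were 14.6% and 7.17% in C57 RT, 20.4% and 20.1% in C57 COLD, 9.64% and 9.86% in C57 CL, 15.5% in WT RT, 17.1% in WT COLD, 13.6% in KO RT and 15.3% in KO COLD. The groups overlapped, since KO COLD was below WT RT. The mean was 18.2% ± 2.47 (SD, n = 4) after cold and 12.7% ± 3.78 (SD, n = 4) at RT (two-sided exact permutation p = 0.0571, adjusted 0.114). The difference of 5.51 points was 9.51 with cells thinned to 1500 counts, 5.84 with a gate sum of 6 and 6.50 without KO COLD. Each of these had an exact permutation p = 0.0286. It was 5.07 with a gate sum of 3 (exact permutation p = 0.0857) and 4.90 without high Scrublet scores (exact permutation p = 0.114). With labels permuted within each line the exact p was 0.111. Without any other single library the exact permutation p was between 0.0571 and 0.114. Split by partner, a comparison added after the values were known, members per 100 Cd209a-gated cells were 12.7 to 33.3 at RT and 33.6 to 66.3 after cold (exact permutation p = 0.0286). Members per 100 Xcr1/Clec9a-gated cells were 19.8 to 61.1 at RT and 38.8 to 41.7 after cold (exact permutation p = 0.829).

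Many genes differed between members and the other dendritic cells. The rule that chose members used expression, so these ratios are a description with no test. Of 3460 genes with at least 50 CPM in a class, 197 (5.69%) were higher in members than in both other classes, and 158 (4.57%) were lower than in both. In these counts and those of the lists below, the direction was the same in all 10 libraries and the median ratio at least 2-fold. Against Xcr1/Clec9a-gated cells alone 322 of 3165 genes (10.2%) were higher and 322 (10.2%) lower, and against Cd209a-gated cells alone 265 of 3207 (8.26%) were higher and 421 (13.1%) lower.

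Genes near silent in the other classes led the higher set. Apol7c, an apolipoprotein L family gene, ranged from 77.7 to 396 CPM in members, and its median was 0 CPM in both other classes. Nudt17, Lad1, the MHC class Ib gene H2-M2 and Zmynd15 were among the 10 largest ratios against both classes, with member medians of 187, 135, 164 and 258 CPM. Fabp5, a fatty acid binding protein, was the largest against Xcr1/Clec9a-gated cells, at 1835 to 6051 CPM in members and 0 to 53.3 CPM there.

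Other genes were also far above 1 or both classes. Cd63, a tetraspanin of late endosomes, had a median of 1261 CPM in members and 7.19 CPM in Xcr1/Clec9a-gated cells (29.5 CPM in Cd209a-gated cells), and Anxa3, an annexin, 351 against 3.40 CPM (11.3 CPM in Cd209a-gated cells). Against Cd209a-gated cells the largest ratio was that of Il12b (median 468 against 0 CPM). It was followed further down by Serpinb6b, a protease inhibitor (499 against 3.71 CPM), Tnfrsf4, which encodes OX40 (232 against 1.83 CPM), and Ly75, the uptake receptor DEC-205 (105 against 0.233 CPM).

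Genes that define the other classes were lower in members. Those classes were themselves chosen by Xcr1, Clec9a or Cd209a and held no members, so a higher level there of genes that go with these markers was built in. The counts are a description. Against Xcr1/Clec9a-gated cells, 10 of 11 cDC1 identity genes were lower in all 10 libraries with a median ratio of at least 2-fold (background 10.2%). Among them were Tlr3, a sensor of double-stranded RNA (median 5.69 against 130.2 CPM), Itgae, which encodes CD103 (4.82 against 59.5 CPM), and Naaa, an acid amidase (196 against 1954 CPM). Against Cd209a-gated cells 9 of 11 genes of type 2 and monocyte-derived cells and 12 of 16 antigen uptake and pattern receptors were lower (background 13.1%), among them Clec10a, a C-type lectin on both lists (38.4 against 486 CPM). Cd209d, a lectin gene beside Cd209a, was at 7.34 against 113 CPM.

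The NF-κB list lay on the other side. Of 15 measured genes, 13 were higher than in Xcr1/Clec9a-gated cells and 9 higher than in Cd209a-gated cells, with none lower (background 10.2% and 8.26% higher). Relb had a median of 648 CPM in members against 41.8 and 55.6 CPM, Traf1, a signaling adaptor, 935 against 160 and 313 CPM, and the survival gene Bcl2a1b 1357 against 165 and 194 CPM. Bcl2a1b shares reads with close copies, so its level is uncertain.

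Migration and immune restraint genes were higher in part. For migration and cytoskeleton, 10 of 18 genes were higher against each class (background 10.2% and 8.26%). Marcksl1, an actin regulator, had 1654 CPM against 107 and 349 CPM, and Tmem123 had 1703 CPM against 57.6 and 87.5 CPM. For immune restraint, with the same background, 5 of 8 were higher against each class, namely Socs2, Cd274, Cd200, Fas and Aldh1a2, the enzyme that makes retinoic acid. None was lower than in Xcr1/Clec9a-gated cells, whereas Socs3 and Tgfb1 were lower than in Cd209a-gated cells (medians 65.0 against 294 CPM and 88.7 against 224 CPM). Cd274 had a median of 136 CPM in members, 20.4-fold and 6.16-fold above the 2 classes.

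Chemokines separated members by gene and not as a group. Ccl5, a chemokine that attracts T lymphocytes, had 1951 CPM in members against 46.4 and 89.5 CPM, and Cxcl16, the ligand of CXCR6, 832 CPM against 151 and 62.8 CPM. Of the 12 measured genes of that list, 5 were higher and 1 lower against each class (background 10.2% and 8.26% higher, 10.2% and 13.1% lower). With the same background, costimulatory genes were higher for 6 of 9 against Xcr1/Clec9a-gated cells and 3 of 9 against Cd209a-gated cells, and Cd48, an adhesion receptor of leukocytes, was lower against each (123 CPM against 284 and 333 CPM). Cd40 was at 229 CPM against 35.5 and 58.9 CPM, whereas Cd86 was at 136 CPM against 156 and 96.2 CPM.

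Antigen presentation genes separated by class of MHC. Of 15 MHC class I genes, 5 were higher against Xcr1/Clec9a-gated cells and 9 against Cd209a-gated cells (background 10.2% and 8.26%), with H2-K1 at 2143 CPM against 627 and 986 CPM. Of 12 MHC class II pathway genes, 3 were lower against each class (background 10.2% and 13.1%) and at most 2 higher (background 10.2% and 8.26%). H2-Aa and Cd74, the invariant chain, were within 1.28-fold and 1.24-fold of both classes by the median ratio. Of 13 cell cycle genes, 4 were lower against Xcr1/Clec9a-gated cells (background 10.2%) and 1 against Cd209a-gated cells (background 13.1%).

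**Figure D3:**
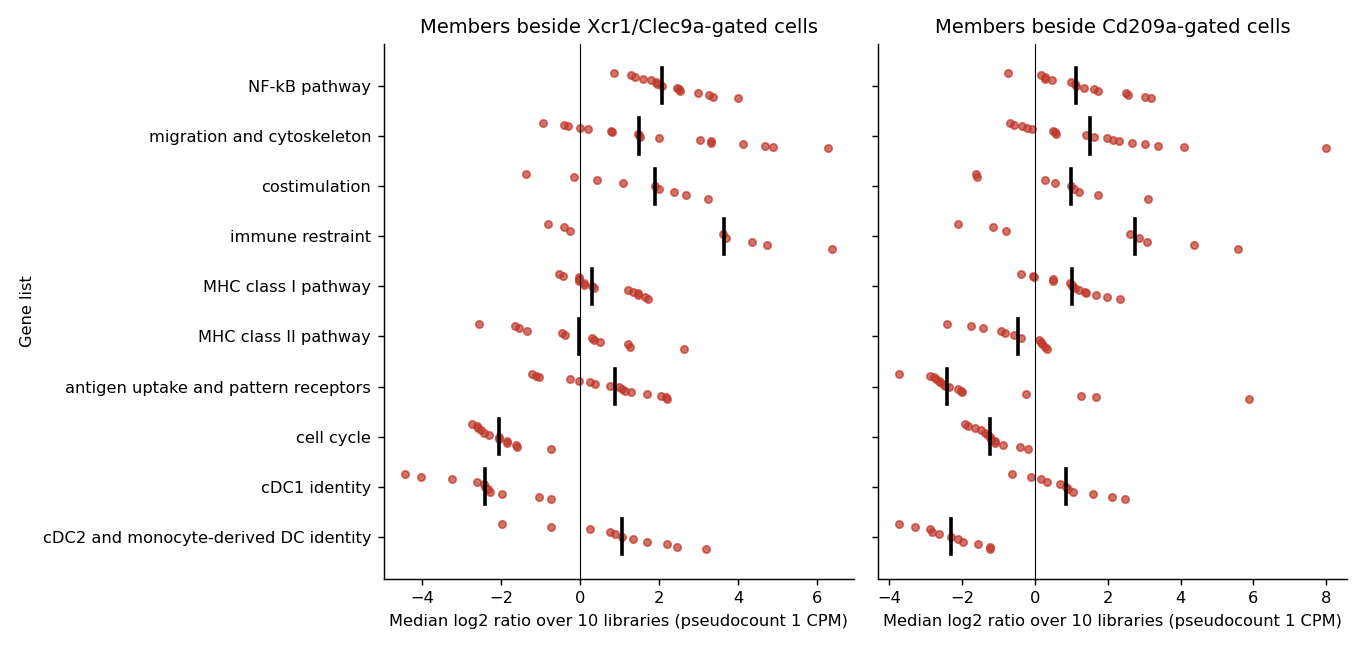
Median log2 ratio over 10 libraries (x axis, pseudocount 1 CPM) of members to Xcr1/Clec9a-gated cells (left) and to Cd209a-gated cells (right) for the genes of 10 lists with at least 50 CPM in a class; each point is a gene and each black bar a list median. The medians of the NF-κB list lie at 2.07 and 1.13, and those of the cDC1 identity list at -2.42 on the left and 0.85 on the right.

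The next question was which genes differed inside members after cold. Counts were summed over the members of each library and tested with edgeR's quasi-likelihood test with Benjamini-Hochberg adjustment over all genes, leaving out the 9 gate genes. In bulk sums of this kind a change in the mix of cells within the gate and a change within each cell cannot be told apart. In C57, where 43.6% of genes were higher and 16.5% lower in both cold libraries than in both RT libraries, 35 of 2853 genes (1.23%) passed an adjusted p of 0.05, 14 higher (0.491%) and 21 lower (0.736%) in cold. With the replicate experiment as a block, 3 genes passed. These were Ccl17, Cxcl9 and Rpl9-ps6, all lower in cold.

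In C57, Ccl17, a ligand of CCR4 that recruits T lymphocytes, fell the most. It was at 3630 and 4536 CPM in RT members, 202 and 372 CPM in COLD members, and 121 and 532 CPM in CL members, so both cold and both CL libraries were below both RT libraries. The log2 change after cold was -4.02 ± 0.66 (SE; edgeR quasi-likelihood test, Benjamini-Hochberg adjusted p = 0.0339, and 0.0337 with the block). In the Adrb1 line it was at 1996 CPM in WT RT and 362 CPM in WT COLD, but at 78.9 CPM in KO RT, where only 6 members were summed, and 249 CPM in KO COLD. Over all libraries Ccl22, a gate gene, was found in 115 of the 121 members with Ccl17. The gate could thus favor cells with Ccl17, and its part in the fall was not tested.

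The cell with the most Ccl17 held 24.5% and 43.4% of its counts in C57 RT and 69.0% and 36.7% in C57 COLD. Without that cell in each library the RT values were 2742 and 2566 CPM, and the cold values 62.7 and 235 CPM. After each cell was thinned to 1500 counts, Ccl17 was found in 27.0% and 43.8% of C57 RT members, 5.4% and 6.3% of C57 COLD members, 45.5% of WT RT and 10.3% of WT COLD members, but in 0 of 6 KO RT and 9 of 40 (22.5%) KO COLD members. Before thinning, Ccl17 was found in 15 of 37 and 7 of 16 C57 RT members and in 20 of 258 and 22 of 224 C57 COLD members. Over both lines Ccl17 fell by 2.91 ± 0.72 on the log2 scale (SE; edgeR adjusted p = 0.0258, and 0.0886 with the block), and the groups overlapped because of KO RT. Ccl22, the other CCR4 ligand and a gate gene, was at 2293, 3039.7, 1042 and 2942 CPM in C57 RT replicates 1 and 2, WT RT and KO RT and at 692, 897, 1165 and 1335 CPM in the matching cold libraries, given without a test. It was lower after cold in C57 and not in WT, while in KO the order turned without the top cell of each library (585 CPM at RT and 897 CPM in cold), 1 of 6 members holding 80.1% of the counts in KO RT.

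Cxcl9, an interferon-inducible ligand of CXCR3 on T lymphocytes, was also lower in cold. It was at 671, 1201, 364 and 1376 CPM in C57 RT replicates 1 and 2, WT RT and KO RT, and at 37.4, 191, 71.8 and 251 CPM in the matching cold libraries, with no overlap. In WT RT 1 of 11 members held 88.8% of the Cxcl9 counts, and without the top cell of each library the RT values were 473, 769, 40.9 and 553 CPM and the cold values 28.1, 123, 34.0 and 175 CPM, so the groups then overlapped. Over both lines it fell by 2.80 ± 0.58 on the log2 scale (SE; edgeR adjusted p = 0.0166), and in C57 alone by 3.20 ± 0.73 (SE; edgeR adjusted p = 0.0583, and 0.0337 with the block). In CL members it was at 62.9 and 214 CPM.

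Among the genes that rose in C57 was Irf7, the master regulator of type I interferon genes, at 86.0 and 154 CPM in RT members and 465 and 668 CPM in COLD members (log2 change 2.11 ± 0.38 SE; edgeR adjusted p = 0.0363, and 0.0556 with the block). The ubiquitous membrane protein gene Itm2b rose from 412 and 377 CPM to 1552 and 1587 CPM. H2-T22, an MHC class Ib gene, rose from 42.5 and 66.3 CPM to 214 and 259 CPM, and its level is uncertain because it shares reads with close copies. The others of the 10 largest were Cd72, Pclaf, Haus8, Lgals3bp, Grn, Gngt2 and Rrad. Cd72, a receptor known from B lymphocytes, and Pclaf, a PCNA-binding replication factor, were at 0 in both RT libraries, and against a floor of 3 counts over the group they were at least 10.7-fold and 9.49-fold higher in cold.

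Ribosomal protein genes and their pseudogenes were most of the 10 largest decreases in C57. They were grouped after their values were seen, and their share among all genes tested was not counted. Of the ribosomal ones, only Rpl9-ps6 passed with the block. Rps27, Rpl36a, Rpl9-ps6, Rps12-ps3, Rpl13a-ps1, Rpl7a-ps5 and Rpl27-ps3 were 7 of the 10 largest, beside Ccl17, Mt2, a metallothionein, and the predicted gene Gm10073. Of the lists, Bcl2a1d, an NF-κB target with close copies, and Egr1, an immediate early gene, also fell (edgeR adjusted p of 0.0494 and 0.0448), and both missed the threshold with the block (0.0819 and 0.0827). In the Adrb1 line, Bcl2a1d was higher after cold (304 and 331 CPM at RT, 563 and 729 CPM in cold, WT first), and so was Mt2 (33.0 and 0 CPM, then 102.5 and 54.8 CPM), neither tested in that line alone. The pseudogenes share reads with their parent genes, so which copy was counted is uncertain. Rpl9-ps6 was at 279 and 183 CPM in C57 RT and 51.5 and 40.4 CPM in C57 COLD, but at 72.5 CPM in WT RT and 57.7 CPM in WT COLD. Leaving out a C57 library left 1 library in an arm, which was then assumed to vary like the other groups, so a lost call says little about stability. All 22 genes printed from the C57 test lost the call without at least 1 of the 4 libraries, and edgeR called 0 genes without RT replicate 1, COLD replicate 1 or COLD replicate 2 (322, 238 and 233 at an unadjusted p under 0.05) and 33 without RT replicate 2. DESeq2 called 104 with all libraries.

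After CL, 0 of 2853 genes (0.0%) passed with edgeR. There were 334 genes at an unadjusted p under 0.05, and DESeq2 called 12. The lowest p-values belonged to 2610528A11Rik, Rpl9-ps6, Eno3, Alox5ap and Ccl17, with edgeR adjusted p between 0.141 and 0.169. Eno3, the muscle enolase, was at 131 and 128 CPM in RT members and 459 and 433 CPM in CL members, and it was at 502 and 521 CPM in C57 COLD. Without CL replicate 2, the library with 49330 CPM of hemoglobin, edgeR called 87 genes, and without CL replicate 1 it called 9. On simulated counts with 1 fixed dispersion, 4-fold changes were recovered for 88.1% and 2-fold changes for 26.9% of genes in this comparison. These rates are not the power of the real test, so 0 calls does not show that changes were absent.

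Taking both lines together gave more libraries per group, with line as a term in the fit. The 4 cold libraries were all higher than the 4 RT libraries for 12.1% of genes and all lower for 5.73%. Of 3352 genes, 318 (9.49%) passed, 125 higher (3.73%) and 193 lower (5.76%) in cold. With C57 replicate 1, C57 replicate 2, WT and KO as blocks, 122 passed. In the kit version 2 libraries alone (2 C57 RT against 4 COLD, added after the values were known) 242 of 5908 passed, of which 106 were among the 318. Of the 20 genes named for the size of their change, 20 passed with the block, 16 in the version 2 libraries and 12 without each library in turn. Of all 52 genes examined by name, 33 passed with the block, 27 in the version 2 libraries and 17 without each library in turn. Both sets were picked by their call in the same libraries, so passing again is no independent support. Pclaf, Abi3 and Acp5, with RT means of 0, 2.29 and 8.05 CPM, were among the risers that could pass the filter on low counts through the cold libraries.

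Part of the interferon response genes rose. Of 21 measured, 11 rose and none fell, beside 3.73% of all genes that rose, and the median log2 change of the list was 1.58 against 0.00 for all genes. They were Irf7, Ly6e, Bst2, Isg15, Usp18, Rtp4, Rsad2, Xaf1, Ifit1, Ifit2 and Ifit3, the last of which has a near-identical copy. Ifit2, with 1 count in all RT members, and Ifit1, Ifit3 and Rtp4, at 0 in at least 1 RT library, were near the filter on low counts at RT and could pass it through the cold libraries, so the count and median of the list are a description. Among the 10 that did not pass, Gbp2 and Gbp5, interferon-induced GTPases, had log2 changes of -1.24 ± 0.42 and -1.64 ± 0.48 (SE; edgeR adjusted p of 0.0834 and 0.0513). Ly6e, a membrane protein induced by interferon, was at 222, 199, 105 and 125 CPM in C57 RT replicates 1 and 2, WT RT and KO RT and at 590, 592, 502 and 692 CPM in the matching cold libraries. The groups were well apart, with a log2 change of 1.75 ± 0.29 (SE; edgeR adjusted p = 0.00793).

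Irf7 and Bst2 showed the same separation. Irf7 was at 90.7 CPM in WT RT, 15.0 CPM in KO RT (in each all from 1 cell), 245 CPM in WT COLD and 484 CPM in KO COLD, and over both lines its log2 change was 2.28 ± 0.38 (SE; edgeR adjusted p = 0.00793). Bst2, the virus-tethering protein tetherin, was at 58.9 to 244 CPM at RT and 429.6 to 599 CPM after cold. Isg15, the ubiquitin-like modifier, was at 56.1 to 497 CPM at RT and 723 to 982 CPM after cold.

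Not every interferon gene held under each reading. With the block 7 of the 11 passed, and Isg15, Rsad2, Xaf1 and Ifit1 did not (edgeR adjusted p between 0.0583 and 0.0805). In the version 2 libraries 5 of the 11 passed, and the other 6 had edgeR adjusted p between 0.0611 and 0.196. Without each library in turn, 2 of the 11 kept the call throughout, namely Irf7 and Ly6e. Bst2 lost it without WT RT, and its log2 change was 1.58 over both lines and 0.954 in the version 2 libraries. After CL the summed level of 26 interferon genes was 1970 and 1372 CPM in members, against 1826 and 2955 CPM in C57 RT and 4086 and 4693 CPM in C57 COLD. The same sum over all Lin+ cells was 1778 to 2075 CPM in the 4 RT libraries and 3451 to 6513 CPM in the 4 cold libraries, so it was higher after cold in Lin+ cells as a whole too.

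Some cell cycle genes rose as well. Of 17 on the list 6 passed the filter on low counts, and 4 of these rose (3.73% of all genes rose), namely Top2a, Birc5, Stmn1 and Ube2c. Stmn1 lost the call without WT RT, and Ube2c without C57 RT replicate 1 or WT RT. Top2a and Birc5, at 0 to 8.16 CPM in the RT libraries, passed the filter through the cold libraries, so the number of calls on this list is no support for a change of the list. In the version 2 libraries Ube2c missed the threshold (edgeR adjusted p = 0.0903). The other 2 were Mki67, a proliferation marker, and Pcna, the DNA polymerase clamp, with log2 changes of 0.26 ± 0.47 and -0.54 ± 0.30 (SE; edgeR adjusted p of 0.763 and 0.274). Top2a, the DNA topoisomerase of dividing cells, was at 0 CPM in both C57 RT libraries and KO RT and 7.95 CPM in WT RT, and at 59.9, 44.5, 111 and 81.4 CPM in C57 COLD replicates 1 and 2, WT COLD and KO COLD. With 1 count in the RT members and 275 in the cold members, the pooled ratio was 37.8 (95% counting interval 6.45 to 1437). Pclaf was at 0 counts in all RT members and 466 counts in cold members, at least 20.5-fold higher against a floor of 3 counts over the group.

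The summed level of cycling genes was set beside that of the other dendritic cells. The 17 cell cycle genes summed to 59.2 to 243 CPM in RT members and 647 to 970.3 CPM in cold members, and to 765 and 508 CPM in CL members. In Xcr1/Clec9a-gated cells the sum was 452 to 1493 CPM at RT and 895 to 2803 CPM after cold, and in Cd209a-gated cells 477 to 1185 CPM at RT and 630.5 to 1580 CPM after cold. In KO COLD the members were at 902 CPM, the Xcr1/Clec9a-gated cells at 895 CPM and the Cd209a-gated cells at 630.5 CPM. Without members in the top 6% of Scrublet scores, 13 of these genes summed to 23.6 to 136 CPM at RT and 245 to 648 CPM after cold, against 27.3 to 136 CPM and 342 to 606 CPM with them.

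**Figure D4:**
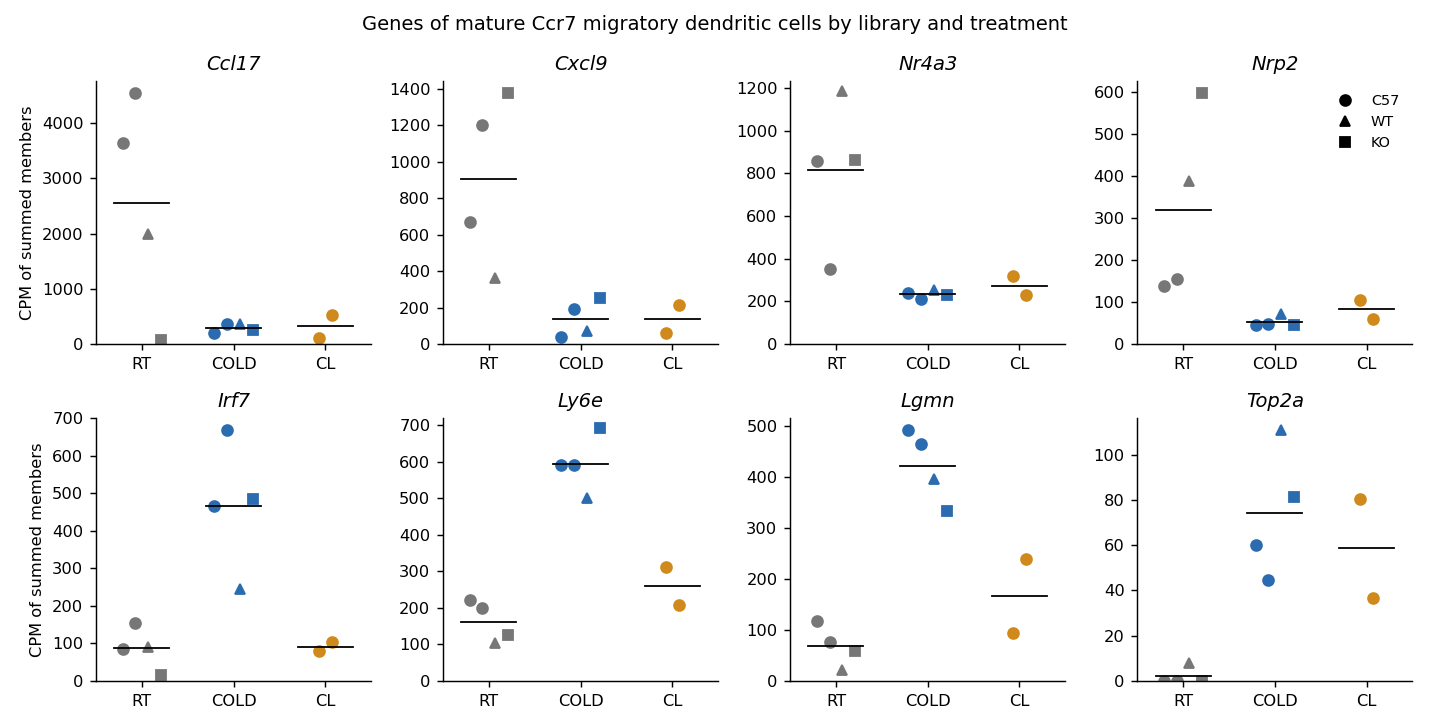
CPM of summed members (y axis) for 8 genes in each RT, COLD and CL library; circles are C57, triangles WT and squares KO, and the black line is the group mean. Cxcl9, Nr4a3 and Nrp2 are lower and Irf7, Ly6e, Lgmn and Top2a higher in all 4 COLD than in all 4 RT libraries, whereas Ccl17 overlaps because KO RT stands at 78.9 CPM. The WT RT value of Cxcl9 is 364 CPM with, and 40.9 CPM without, 1 cell.

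Other genes that rose were named by size or by their list. Lgmn, the lysosomal protease legumain, was at 117, 76.2, 21.0 and 58.2 CPM in C57 RT replicates 1 and 2, WT RT and KO RT and 493, 465, 397 and 333 CPM in the matching cold libraries (log2 change 2.47 ± 0.33 SE; edgeR adjusted p = 0.00312). It was the only one of 11 MHC class II pathway genes to pass (9.49% of all genes passed). Acp5, the tartrate-resistant phosphatase, had at most 14.5 CPM in any RT library and 61.5 to 122 CPM after cold. Abi3, an actin regulator, rose from at most 9.15 CPM to 43.0 to 62.4 CPM, and Tctex1d2, a dynein light chain, from at most 49.0 CPM to at least 229.9 CPM.

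Among lipid handling genes 3 of 10 rose, namely Cd63, Plin2 and Fabp4, and none fell (3.73% of all genes rose). Fabp4, at 0 CPM in C57 RT replicate 2, could pass the filter on low counts through the cold libraries. Over all Lin+ cells the sum of the list was 3760 to 7623 CPM at RT and 10811 to 26673 CPM after cold. In Cd209a-gated cells it was 2133 to 2378 CPM and 3614 to 4774 CPM, so the sum was higher after cold outside members too. Cd63 was at 352 to 881 CPM at RT and 1242 to 1674 CPM after cold. Plin2, a lipid droplet coat protein, was at 33.8 to 121 CPM at RT and 112 to 187 CPM after cold. With the block Cd63 and Plin2 missed the threshold (edgeR adjusted p of 0.0652 and 0.0515), and in the version 2 libraries Cd63 and Fabp4 did (edgeR adjusted p of 0.0878 and 0.0530). Fabp4, an adipocyte and macrophage lipid carrier, was at 0 to 63.0 CPM at RT and 51.4 to 441 CPM after cold, and it reached 2589 CPM in C57 CL replicate 1. All of its counts in that CL library came from 1 of 27 members, and in C57 COLD replicate 2 the top cell held 77.9%, with 97.3 CPM without it. It was 1 of the 2 genes set to unexpressed when free RNA was removed from the files, and the part of that step in its levels was not tested.

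Nrp2, a neuropilin that binds CCL21 through its polysialic acid, was among the 10 largest decreases over both lines. It was at 139, 156, 388 and 598 CPM in C57 RT replicates 1 and 2, WT RT and KO RT and at 45.8, 48.6, 73.0 and 45.2 CPM in the matching cold libraries. The groups did not overlap, and the log2 change was -2.38 ± 0.28 (SE; edgeR adjusted p = 0.00249). The fall was steeper in the Adrb1 line, where the RT libraries were made with the newer kit, and in the version 2 libraries alone it was -1.66 (edgeR adjusted p = 0.00641).

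Adam23, an adhesion protein of the disintegrin family, Vim, the intermediate filament vimentin, Adam8, Icam1 and Dock8 were the 5 of 18 migration and cytoskeleton genes that fell, and none of that list rose (5.76% of all genes fell). Adam23 was at 66.0 to 222 CPM at RT and 14.2 to 34.2 CPM after cold, and Vim at 1448 to 3726 CPM and 599 to 907 CPM. With the block, Adam8, Icam1 and Dock8 missed the threshold (edgeR adjusted p between 0.0611 and 0.107), as they did in the version 2 libraries (0.125, 0.292 and 0.214). In C57, Icam1 was at 375 and 359 CPM at RT and 303 and 369 CPM after cold. Marcksl1, among the most abundant of the list, had a log2 change of 0.91 ± 0.30 (SE; edgeR adjusted p = 0.0741).

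Fnbp1l, a regulator of actin and membrane curvature, Cd44, the hyaluronan receptor, and Ahnak, a large scaffold protein, were also among the 10 largest decreases. Fnbp1l was at 154 to 424 CPM at RT and 63.1 to 90.0 CPM after cold. Cd44 was at 268 to 895 CPM at RT and 101 to 174 CPM after cold. Its log2 change was -1.89 over both lines and -1.26 in the version 2 libraries alone. Ahnak was at 289.6 and 146 CPM in C57 RT but 1707 and 1128 CPM in the 2 version 3 RT libraries, against 77.6 to 134 CPM after cold, so most of its fall over both lines was in the Adrb1 line.

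Immediate early and NF-κB genes fell in part. Nr4a3, an orphan nuclear receptor, was at 857, 354, 1183 and 863 CPM in C57 RT replicates 1 and 2, WT RT and KO RT and at 242, 210.0, 252 and 229 CPM in the matching cold libraries (log2 change -1.85 ± 0.29 SE; edgeR adjusted p = 0.0073). Its relative Nr4a2 fell from 180.1 to 824 CPM at RT to 71.3 to 156 CPM after cold. The log2 change of Nr4a2 was -1.92 over both lines and -1.09 in the version 2 libraries alone. Of 17 immediate early and heat shock genes 3 fell and none rose (5.76% of all genes fell), and Ier3 and Egr1 missed the threshold with the block (edgeR adjusted p of 0.0955 and 0.0558) and in the version 2 libraries (0.138 and 0.0687).

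Of 17 NF-κB pathway genes 3 fell (5.76% of all genes fell), namely Nfkb1, Rel and Tnfaip3, which encodes the feedback inhibitor A20. Tnfaip3 was at 235 to 889 CPM at RT and 125 to 198 CPM after cold (log2 change -1.73 ± 0.28 SE; edgeR adjusted p = 0.00793), and Nfkb1 and Rel missed the threshold with the block (edgeR adjusted p of 0.0575 and 0.0885) and in the version 2 libraries (0.0533 and 0.0955). The median of that list was -0.34 on the log2 scale, against 0.00 for all genes. Relb, by contrast, was at 359 to 651 CPM at RT and 549 to 759 CPM after cold, with overlapping groups.

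Of lineage genes, 1 of 9 on the cDC1 identity list fell, namely Wdfy4, and none rose. On the list of type 2 and monocyte-derived cells 1 of 8 fell (Ccr2), and on that of general dendritic cell genes 1 of 7 (Itgax). Of all genes 5.76% fell. Outside these lists Insig1, a regulator of sterol synthesis, fell by 1.18 on the log2 scale (edgeR adjusted p = 0.0172). With the block Insig1 missed the threshold (edgeR adjusted p = 0.0575). Itgax, which encodes CD11c, and Ccr2, a monocyte chemokine receptor, fell, and missed the threshold with the block (edgeR adjusted p of 0.0583 and 0.0912) and in the version 2 libraries (0.232 and 0.736). In C57, Ccr2 was at 57.5 and 96.5 CPM at RT and 78.2 and 45.9 CPM after cold. Wdfy4, needed for cross-presentation, fell, and so did Zc3h12c and the mitochondrial gene mt-Nd4l. Wdfy4 was at 76.6 and 71.6 CPM in C57 RT and 61.7 and 43.7 CPM in C57 COLD, against 423 and 424 CPM in the 2 version 3 RT libraries, and it missed the threshold in the version 2 libraries (edgeR adjusted p = 0.261), as did Zc3h12c (log2 change -2.15 over both lines and -0.997 in the version 2 libraries, edgeR adjusted p = 0.0906). Clec4a3, a C-type lectin, and Ighm, the immunoglobulin M heavy chain, rose, and both missed the threshold in the version 2 libraries (edgeR adjusted p of 0.0529 and 0.307) and without WT RT, Ighm also without any other RT library.

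Costimulation, immune restraint and MHC class I genes gave 0 calls with edgeR, of 9, 8 and 15 measured, where 318 of all 3352 genes (9.49%) passed. At an unadjusted p under 0.05 there were 899 of all genes. Cd274 was at 163 to 394 CPM at RT and 102 to 141 CPM after cold, with a log2 change of -0.87 ± 0.27 (SE; edgeR adjusted p = 0.0634). B2m, the MHC class I light chain, had a log2 change of 1.09 ± 0.35 (SE; edgeR adjusted p = 0.0703), and Cd40 one of -0.33 ± 0.38 (SE; edgeR adjusted p = 0.616). Ccl5 was at 1269 to 2516 CPM at RT and 1768 to 4062 CPM after cold, with a log2 change of 0.59 ± 0.28 (SE; edgeR adjusted p = 0.200).

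The last question was whether the cold response of members differed from that of Cd209a-gated cells of the same C57 libraries, tested as the interaction of class and treatment with library as a block. Of 7351 genes, 22 differed, 11 (0.15%) with a more positive and 11 (0.15%) with a more negative response in members. Of 26 interferon response genes tested, 5 were among the latter, namely Ifi47, Zbp1, Gbp2, Rsad2 and Oasl1, and none among the former. The median difference of that list was -1.46 on the log2 scale, against 0.06 for all genes. In Cd209a-gated RT cells Oasl1 was at 0 CPM in both libraries and Rsad2 at 8.37 and 14.0 CPM. Such genes could pass the filter on low counts through the groups where they were higher, so the count and median of the list are a description. Ifi47, an interferon-inducible GTPase, was at 49.2 and 80.4 CPM in RT members and 46.8 and 58.7 CPM in COLD members, whereas in Cd209a-gated cells the RT values were 16.8 and 27.9 CPM, and the cold values 165 and 168 CPM. The difference of the responses was -3.17 ± 0.55 on the log2 scale (SE; edgeR adjusted p = 0.0200).

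Gbp2, another interferon-induced GTPase, was at 201 and 576 CPM in RT members and 111 and 154 CPM in COLD members, while in Cd209a-gated cells the RT values were 37.1 and 41.9 CPM, and the cold values 48.8 and 61.8 CPM (difference -1.94 ± 0.35 SE; edgeR adjusted p = 0.0240). Rgs1, which limits chemokine receptor signaling, was at 1126 and 2109 CPM in RT members and 1676 and 1854 CPM in COLD members, but at 60.7 and 85.6 CPM and then 303 and 360.2 CPM in Cd209a-gated cells (difference -1.99 ± 0.36 SE; edgeR adjusted p = 0.0212). The cycling genes Top2a and Pclaf and the hemoglobin gene Hbb-bs were among those of the opposite sign. Their RT members were at 0, so the size of their difference is not bounded. Fcrls, Retnla and Fn1 had that sign too and fell in Cd209a-gated cells. Retnla was there at 442 and 597 CPM at RT and 4.52 and 11.3 CPM after cold. Macrophage markers in Cd209a-gated cells summed to 4476 and 6512 CPM in C57 RT and 2600 and 2664 CPM in C57 COLD. The part of the mix of cells in that class was not tested. Serpina3g and Ifi205 had the lowest p, with a more negative response in members. Without C57 RT replicate 2, 0 genes passed with edgeR (513 at an unadjusted p under 0.05), and without RT replicate 1, 10 passed.

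**Figure D5:**
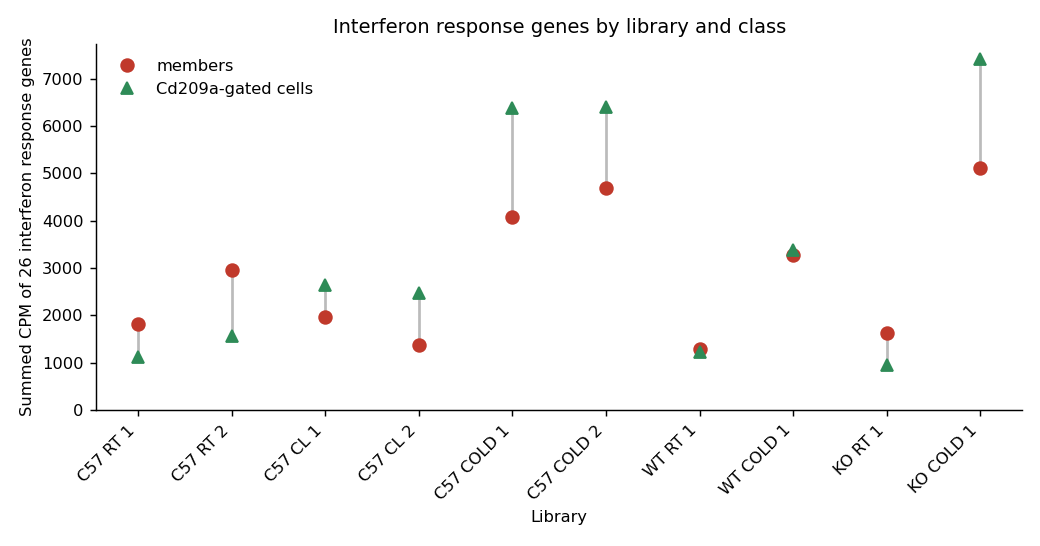
Summed CPM of 26 interferon response genes (y axis) in members and in Cd209a-gated cells of each library (x axis), with a grey line joining the classes of 1 library. In C57 the sum in members went from 1826 and 2955 CPM at RT to 4086 and 4693 CPM in cold, and in Cd209a-gated cells from 1110 and 1553 CPM to 6396 and 6401 CPM.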

How the data were processed

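Per the study's methods, the authors aligned and counted unique molecular identifiers with Cell Ranger (version 3.0.1 in the submitters' processing notes, which name the mouse build mm10) and removed estimated free RNA with SoupX, with Fabp4 and Car3 set as unexpressed. The deposited matrices hold these corrected values, which are expected counts: they need not be whole, and removal of free RNA lowers genes found in it. Here the matrices of 10 Lin+ libraries were filtered and gated as described, and values were summed over members per library and rounded. The members and gene lists were chosen with earlier results of these data known. Every list was drawn up by hand from known functions.

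Tests used edgeR 4.0.16 in R 4.3.3 (TMM, filterByExpr, quasi-likelihood F test, Benjamini-Hochberg threshold 0.05). DESeq2 1.42.0 was an alternative. Shares were compared by exact permutation over libraries with scipy 1.17.1. CPM are counts scaled to 1e+06 per summed library. Genes were named if they were the 10 largest changes per direction among called genes with no overlap and at least 20 CPM. Also named were the 5 lowest p where fewer than 5 were called, and the most abundant and the called members of a list. So were the largest ratios to another class, with a mean of at least 50 CPM and the same direction in all 10 libraries. Other genes named were chosen after their values were seen. Scripts were tested on simulated data, where 4-fold changes were recovered for 94.0% of genes in the C57 cold comparison and 100% over both lines. For 2-fold changes these were 32.8% and 74.6%. Only the more abundant genes were changed and all genes had 1 fixed dispersion, so these rates are not the power of the real tests.

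Same-numbered C57 libraries came from the same experiment according to the study's methods. Deviations of same-numbered libraries from their group means correlated at 0.09 (RT and COLD), -0.04 (RT and CL) and 0.31 (COLD and CL) over 1208 genes. Replicates differed by more than sampling noise (chi-square divided by degrees of freedom, 35.5 to 206). Totals of expected counts behind each value, and intervals, cover counting error only. The genes Ifi30 and Clec7a of the lists were not analysed here. Some members of the sterol list are not reported here.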

Additional observations from a re-analysis of the deposited data

Results flagged for a closer look

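Among 108 groups of 4 libraries examined for a value far from the rest, 9 were picked out, where chance gives about 1 in 20. The member share of C57 RT replicate 1, 0.909%, stood apart from the other RT libraries. Among COLD libraries, Cd63 was high in C57 COLD replicate 1 (1674 CPM), Itgax (72.6 CPM), Nrp2 (73.0 CPM) and Pclaf (232 CPM) stood apart in WT COLD, and Nfkb1 (97.9 CPM) and Ube2c (108 CPM) in KO COLD. Among RT libraries Plin2 stood apart in KO RT (121 CPM) and Stmn1 in C57 RT replicate 1 (86.0 CPM).

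The response to cold in C57 differed between members and Cd209a-gated cells for 22 genes by edgeR's interaction test. For members of the lists the differences (members minus Cd209a-gated cells, log2) were -8.20 for Oasl1, -3.17 for Ifi47, -2.01 for Zbp1, -1.99 for Rgs1, -1.94 for Gbp2, -2.25 for Basp1, -2.88 for Rsad2, 8.41 for Top2a and 11.28 for Hbb-bs. Oasl1 was at 0 in Cd209a-gated cells at RT, and Top2a and Hbb-bs were at 0 in RT members, so these fitted values are not bounded.

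The lineage marker negative (Lin-) libraries, which the comparisons did not use, held 59 cells that passed the same gate, of 59600. There were 22, 18, 4 and 2 in the C57 COLD replicate 1, C57 COLD replicate 2, WT COLD and KO COLD libraries, and 2, 1, 2 and 2 in the matching RT libraries. The shares were 0.237% and 0.275% in C57 COLD and 0.0374% and 0.0178% in C57 RT. They were 0.0660% in WT COLD and 0.0424% in WT RT, and in KO the order turned, with 0.0534% in KO COLD and 0.0856% in KO RT.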

How the results depend on the processing

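The member share after cold over both lines kept its direction under all alternatives. Its difference of 2.02 percentage points kept an exact permutation p = 0.0286, at 1.68 to 2.03, when cells were thinned, when the gate sum was 3 or 6, without high Scrublet scores and without the gene minimum. Within-line labels (the replicate block) gave 2.02 at an exact p = 0.0556. C57 alone gave 2.87 and the Adrb1 line alone 1.16, both at an exact p = 0.333. Leaving out 1 library gave 1.63 to 2.47, with an exact p = 0.0571 when an RT library was left out. The C57 cold difference was 2.60 to 3.15 without 1 library, and the CL difference -0.464 to 0.0873, turning positive without RT replicate 1. The share of gated dendritic cells (5.51 points) reached an exact p = 0.0286 with thinned cells (9.51) and a gate sum of 6 (5.84). It did so too without KO COLD (6.50), and did not with a gate sum of 3 (5.07, exact p = 0.0857). High Scrublet scores left out gave 4.90 (exact p = 0.114), and within-line labels an exact p = 0.111. The range without 1 library was 3.65 to 6.50. Members per 100 Cd209a-gated cells differed by 27.6. Counts of genes changed in C57 after cold (35) were 249 with no filter, 3 with the replicate block, 104 with DESeq2, 216 with only the groups compared, 75 without hemoglobin genes and 0 to 33 without 1 library. After CL (0 with edgeR, 334 at an unadjusted p under 0.05) they were 81 with no filter, 12 with DESeq2 and 0 to 87 without 1 library. Over both lines (318) they were 653 with no filter (470 higher, 183 lower), 122 with the replicate block, 174 without KO RT and high Scrublet scores, and 70 to 370 without 1 library, the lowest without WT RT. The interaction count (22) was 92 with no filter and 0 to 57 without 1 library. The causes were not tested. The other normalization moved the median log2 change of all genes by under 0.1, while no filter raised it to 0.46 in C57 and 0.49 over both lines. The replicate block changed no call of a reported gene other than those given beside the results and those of the C57 genes printed, of which 2 of 22 passed with it. Of 1188 values of single genes under alternatives, none changed sign and 325 missed the threshold. RT members numbered 6 to 37 per library.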
